A study of Homo sapiens with 14 samples.

Results

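Mixtures made of 80% HEK and 20% Jurkat cells were compared with pure HEK cells, to see which T cell transcripts could be read at that share and which could not. The libraries were taken by their titles as Mixture 3 and 4 (20% Jurkat) and Mixture 1 and 2 (pure HEK), which are 4 of the 14 libraries of the series. The HEK-293T line comes from human embryonic kidney and the Jurkat line from a human T cell leukaemia, and no treatment was given to any group. Cell suspensions of both lines were combined at 7 percentages, mRNA was caught on oligo(dT) beads, and ERCC spike-ins, which are synthetic RNAs, were put into the mRNA before barcoded cDNA was made. Each percentage had 2 libraries. The records call these technical replicates, so p-values measure only that spread. The pure HEK group held 100% HEK cells, and the 40% Jurkat (Mixture 5 and 6) and pure Jurkat libraries (Mixture 13 and 14) were read beside it.

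T cells recognise antigen through the T cell receptor, whose chains are carried to the surface with the CD3 proteins and the zeta chain. The kinases LCK and ZAP70 pass the signal on to adaptor proteins. Jurkat cells carry this receptor together with genes of immature thymocytes, and TAL1 is a transcription factor active in this type of leukaemia. Epithelial-like HEK cells do not use the receptor, so its transcripts in a mixture are of interest as a reading of the Jurkat share.

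The 4 libraries held 9452243 and 15158082 gene counts (pure HEK) and 15167187 and 14672205 gene counts (20% Jurkat). The pure Jurkat libraries were shallower, with 4468822 and 6204316. Levels are given as CPM, counts scaled to the same total over genes in each library, with spike-in rows left out. A level of 3 counts, used as the floor, was worth 0.317 and 0.198 CPM in pure HEK and 0.198 and 0.204 CPM at 20% Jurkat. Gene counts per ERCC count were 147 and 97.3 in pure HEK and 46.6 and 123 at 20% Jurkat, so these groups overlapped (exact two-sided permutation test, p = 0.667, where 0.33 is the smallest p that 2 against 2 allows). In pure Jurkat the ratio was 12.1 and 12.3. The share of cells is the one the labels say was mixed in. From the gene counts of a bulk mixture alone, fewer Jurkat cells and less RNA in each of them cannot be told apart.

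Mixture 3 and 4 also stood apart from pure HEK in some genes that were lower in both pure lines. Levels of HOXA6, a homeobox gene, were 9.43 and 9.82 CPM in pure HEK, 70.0 and 45.0 CPM at 20% Jurkat, and 1.75 and 9.80 CPM in pure Jurkat. Its level was 6.43 and 7.13 CPM at 40% Jurkat, and high again in Mixture 7 (50% Jurkat, 62.9 CPM) and Mixture 9 (60% Jurkat, 63.5 CPM), against 7.78 and 7.22 CPM in their replicates. CYFIP1, a subunit of an actin-regulating complex, read 25.8 and 26.2 CPM in pure HEK and 116 and 142 CPM at 20% Jurkat, with 18.0 and 37.8 CPM in pure Jurkat and 106 and 62.5 CPM in Mixture 7 and 9. The pseudogene HSP90AB2P, which can share reads with HSP90AB1, read 10.2 and 12.0 CPM in pure HEK and 86.5 and 91.6 CPM at 20% Jurkat, with 16.7 and 38.5 CPM in pure Jurkat and 91.9 and 33.7 CPM in Mixture 7 and 9. HSP90AB1 itself read 2170.4 and 2623 CPM in pure HEK, 5442 and 4781 CPM at 20% Jurkat and 4163 and 5897 CPM in pure Jurkat. In pure Jurkat, 1 library lay above both 20% libraries, so HSP90AB1 is not among the genes lower in both pure lines. These 4 genes were picked after their values were seen. What set Mixture 3, 4, 7 and 9 apart was not tested, and in the comparison with pure HEK it cannot be told apart from the 20% of Jurkat cells.

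**Figure D1:**
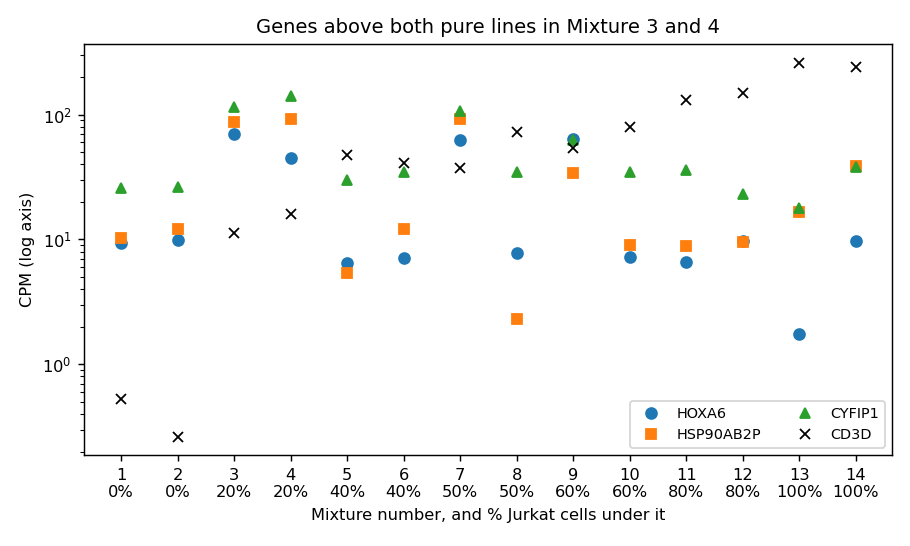
CPM (log axis) of HOXA6, HSP90AB2P, CYFIP1 and CD3D in each of the 14 libraries, ordered by Mixture number with the percentage of Jurkat cells under it. HOXA6 sits at 70.0 and 45.0 CPM in Mixture 3 and 4 and again above 60 CPM in Mixture 7 and 9, while CD3D is lowest in pure HEK and highest in pure Jurkat.

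Of 17179 genes tested, 74 were called higher at 20% Jurkat, which is 0.431% of them, and 2 were called lower, 0.0116% (edgeR, quasi-likelihood test, Benjamini-Hochberg adjusted p under 0.05). The median log2 fold change of all genes tested was -0.01. By edgeR all calls were lost with Mixture 3 or Mixture 4 left out, and more were made with Mixture 1 or Mixture 2 left out. Each of these fits holds a lone library in a group, so their calls are not counted here. DESeq2 called 312 higher and 37 lower, and an unadjusted edgeR p under 0.05 was met by 1261 higher and 429 lower. With ERCC totals as library sizes the median moved to -0.57, and 17 genes were called higher and 11 lower. In 57 of the 74 both pure Jurkat libraries lay above both 20% Jurkat libraries, and all 24 T cell list genes described below are among these. Another 13 lay above all 4 pure libraries, among them HOXA6, CYFIP1 and HSP90AB2P, and 4 were mixed. With all 14 libraries in the fit, 180 of 19129 genes were called higher (0.941%), including 56 of the 57 and 1 of the 13. The pseudoautosomal gene P2RY8 has an X and a Y row in the files with the same counts and makes up 2 of the 74.

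T cell genes were set out in 10 lists of 166 genes, of which 110 had counts enough to be tested. Of these 166, 24 were called higher at 20% Jurkat, beside 0.431% of all genes tested. None was called lower by edgeR, with 0 lower at an unadjusted p under 0.05 and 0 by DESeq2, which called 44 higher. Passing the filter on low counts could depend on the 20% libraries, so counts over the members tested are a description only. By a plainer reading, both 20% Jurkat libraries lay above both pure HEK libraries with over 3 counts in 100 of 166 members, and in 84 of the 110 tested, beside 17.8% of all genes tested. Over all 166 members, the median level was 0.317 and 0.198 CPM in pure HEK, 1.98 and 2.02 CPM at 20% Jurkat and 24.7 and 27.6 CPM in pure Jurkat. The median log2 fold change of the 110 tested was 1.91, or 1.72 with genes at 0 in pure HEK set to their lower bound. All 24 were also called with all 14 libraries in the fit, which called 62 list members. No list member stayed called by edgeR with Mixture 3 or Mixture 4 left out. These fits hold a lone library at 20% Jurkat, and fits without Mixture 1 or Mixture 2 hold a lone pure HEK library. Only effect sizes are read from either kind. Without Mixture 3 and without Mixture 4 the log2 fold change of CD3D was 5.38 and 4.97, beside 5.19 with all 4 libraries. That of FYB1 was 6.96 and 7.34, beside 7.17. Why the calls were lost was not tested. Without Mixture 1 and without Mixture 2 the log2 fold change of CD3D was 5.66 and 4.70, and more list members were called. ERCC totals as library sizes gave 5 calls. Some genes named below fell outside the naming rule and were chosen after their values were seen, namely TRBC2, TRDC, TRGC1, SH2D1A, SKAP1, RUNX1, IKZF1, ETS1, CORO1A, MYO1G, ITGB2, NEFM, EYA1, COL1A1, HBB and MPO.

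**Figure D2:**
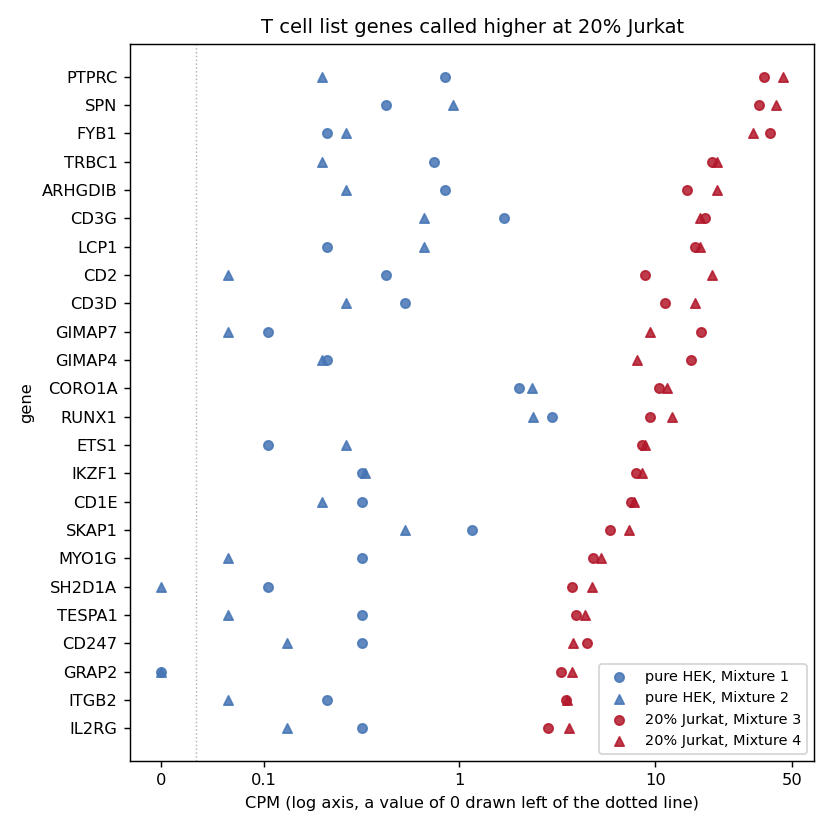
CPM (log axis) of the 24 T cell list genes called higher, with pure HEK libraries in blue and 20% Jurkat libraries in red, circles for replicate 1 and triangles for replicate 2. In each gene both red points lie to the right of both blue points.

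CD3D, CD3G and CD247 (the zeta chain) and TRBC1, a constant region of the beta chain, were called higher among 12 receptor and CD3 genes, of which 7 were tested. CD3D (0.529 and 0.264 CPM in pure HEK) read 11.2 and 15.9 CPM at 20% Jurkat, against 260.2 and 238 CPM in pure Jurkat. Its log2 fold change was 5.19 with a standard error of 0.37 (edgeR adjusted p = 0.00932). Both 20% libraries were above both pure HEK libraries, and the 40% libraries were higher again, at 47.4 and 40.8 CPM. CD3D lies on the minus strand of chromosome 11, at chr11:118339075-118342705 in GRCh38. The 250 bases before its start (chr11:118342706-118342955, minus strand) are shown because the gene rose with other receptor chains. Beside them stand the 250 bases before CD2 (chr1:116754180-116754429, plus strand), an adhesion receptor described further on that was called as well. Both are RefSeq windows of build GRCh38.p14, and capitals mark TGTGGT, a core motif of RUNX factors, searched on both strands.
CD3D: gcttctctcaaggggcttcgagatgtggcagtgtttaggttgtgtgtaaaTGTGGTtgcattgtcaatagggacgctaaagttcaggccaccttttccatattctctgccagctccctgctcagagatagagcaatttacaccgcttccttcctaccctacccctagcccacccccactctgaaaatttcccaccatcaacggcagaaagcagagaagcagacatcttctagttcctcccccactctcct
CD2: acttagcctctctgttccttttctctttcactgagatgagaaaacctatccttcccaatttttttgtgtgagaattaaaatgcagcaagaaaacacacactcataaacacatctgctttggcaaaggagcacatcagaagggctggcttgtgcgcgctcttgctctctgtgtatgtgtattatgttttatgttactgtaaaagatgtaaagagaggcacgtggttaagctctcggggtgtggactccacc
The CD3D window held 1 match to this motif and the CD2 window held 0, beside 11.0% of 35116 promoter windows of the same length with a match. The GATA motif AGATAA was in neither window and in 9.17% of all promoters. An ETS motif searched in the same way, CGGAAG, was likewise in neither of them and in 16.5% of all promoters. A match is a description of the letters and not of binding.

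CD3G read 1.69 and 0.660 CPM in pure HEK and 18.0 and 16.9 CPM at 20% Jurkat, with a log2 fold change of 4.02 ± 0.39 (SE, n = 2 per group, edgeR adjusted p = 0.0225). That value was 4.74 without Mixture 1 and 3.41 without Mixture 2. Without Mixture 3 or Mixture 4 it was 3.93 and 4.11. CD247 read 0.317 and 0.132 CPM in pure HEK and 4.48 and 3.82 CPM at 20% Jurkat (edgeR adjusted p = 0.0312). TRBC1 read 0.741 and 0.198 CPM in pure HEK and 19.5 and 20.7 CPM at 20% Jurkat (edgeR adjusted p = 0.0103). TRBC1 and TRBC2 are near-identical and can share reads, so the division between them is uncertain.

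The receptor genes TRAC, TRBC2 and CD3E lay above pure HEK in both 20% libraries without passing the edgeR test with TMM scaling in the 4 libraries. They were called with all 14 libraries in the fit. DESeq2 on the 4 libraries called 7 of the 12 receptor and CD3 genes, TRAC among them (DESeq2 adjusted p = 0.00235). TRAC, the alpha chain constant region, had 2 and 0 counts in pure HEK and read 3.16 and 3.48 CPM at 20% Jurkat (edgeR adjusted p = 0.0651). Its pooled ratio was 40.8, with an exact 95% counting interval of 11.0 to 342. TRBC2, at 0 in both pure HEK libraries, was at least 8.64-fold higher at 20% Jurkat, taken from 3 counts per library (edgeR adjusted p = 0.0522). CD3E read 0.317 and 0.132 CPM in pure HEK and 1.78 and 3.54 CPM at 20% Jurkat, where the libraries lay further apart (edgeR adjusted p = 0.0961). TRDC and TRGC1, of the gamma-delta receptor, had 0 counts in these 4 libraries and in both pure Jurkat libraries.

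Of 24 genes of proximal signalling, 20 were tested and 4 were called higher, namely the adaptors GRAP2, SH2D1A and SKAP1 and the thymocyte protein TESPA1. GRAP2 had 0 counts in pure HEK and read 3.30 and 3.75 CPM at 20% Jurkat, at least 13.7-fold higher (edgeR adjusted p = 0.0312). TESPA1 read 0.317 and 0.0660 CPM in pure HEK and 3.96 and 4.36 CPM at 20% Jurkat (edgeR adjusted p = 0.0407). LCK, the kinase that starts the receptor signal, read 1.59 and 1.12 CPM in pure HEK and 6.07 and 9.95 CPM at 20% Jurkat (edgeR adjusted p = 0.0509). ZAP70, the kinase next in line, had 1 count in each pure HEK library and read 1.38 and 1.16 CPM at 20% Jurkat, a pooled ratio of 15.7 with a counting interval of 4.05 to 134 (edgeR adjusted p = 0.104). Both LCK and ZAP70 were called with all 14 libraries in the fit, which called 8 genes of this list. In the 4 libraries DESeq2 called LCK (DESeq2 adjusted p = 0.000325).

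FYN, a related kinase, was already made by HEK cells. It read 136 and 146 CPM in pure HEK, 150.4 and 146 CPM at 20% Jurkat and 173 and 129.7 CPM in pure Jurkat (edgeR adjusted p = 0.896). The 20% libraries were close to pure HEK, and the FYN log2 fold change of 0.12 became -0.45 with ERCC totals as library sizes. RASGRP1, an activator of RAS, read 2.33 and 3.36 CPM in pure HEK and 5.34 and 7.29 CPM at 20% Jurkat (edgeR adjusted p = 0.226). Its libraries did not overlap, yet the difference did not pass the test.

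Surface proteins of leukocytes gave 3 calls among 25 members, 16 of them tested. PTPRC, the phosphatase CD45, read 0.846 and 0.198 CPM in pure HEK and 35.8 and 45.0 CPM at 20% Jurkat, against 1363 and 1670.1 CPM in pure Jurkat (log2 fold change 6.47 ± 0.46, SE, n = 2 per group, edgeR adjusted p = 0.00932). SPN, the sialophorin CD43, read 0.423 and 0.924 CPM in pure HEK and 33.9 and 41.4 CPM at 20% Jurkat (edgeR adjusted p = 0.00672). CD2, an adhesion receptor, read 0.423 and 0.0660 CPM in pure HEK and 8.90 and 19.4 CPM at 20% Jurkat (edgeR adjusted p = 0.0312). The CD2 replicates at 20% differed more than those of PTPRC, and at 40% Jurkat CD2 read 8.85 and 10.4 CPM, no higher than at 20%. Set against the pure Jurkat mean, CD2 kept 8.49% and 18.5% of its level at 20% Jurkat, where PTPRC kept 2.36% and 2.97%.

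CD96, a receptor of T and NK cells, read 0.321 and 0.198 CPM in pure HEK and 1.39 and 0.896 CPM at 20% Jurkat, with 94.8 and 36.9 CPM in pure Jurkat (edgeR adjusted p = 0.296). CD4 could not be seen at this share, with 0.0659 and 0.0682 CPM at 20% Jurkat and 1.57 and 0.645 CPM in pure Jurkat. CD8A was as high in pure HEK (0.635 and 1.65 CPM) as in pure Jurkat (1.12 and 0.645 CPM), and read 0.791 and 1.16 CPM at 20% Jurkat (edgeR adjusted p = 0.939).

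Of 18 transcription factors of the T lineage, 15 were tested and 3 were called higher, while 7 had an unadjusted edgeR p under 0.05 in the higher direction. That unadjusted threshold was met in the higher direction by 1261 of all 17179 genes tested. DESeq2 called 6 and the fit of all 14 libraries called 6. Above pure HEK in both 20% libraries lay 11 of the 18, beside 17.8% of all genes tested. IKZF1, the lymphoid factor Ikaros, read 0.317 and 0.330 CPM in pure HEK and 7.95 and 8.59 CPM at 20% Jurkat (edgeR adjusted p = 0.00916). ETS1 read 0.106 and 0.265 CPM in pure HEK and 8.51 and 8.86 CPM at 20% Jurkat (edgeR adjusted p = 0.00932), and RUNX1 rose as well (edgeR adjusted p = 0.0371). The other 11 that Jurkat cells made were all above the floor in both pure HEK libraries.

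LEF1, a partner of beta-catenin, is an example. It read 938 and 797 CPM in pure Jurkat, but 35.7 and 32.8 CPM in pure HEK and 45.7 and 38.2 CPM at 20% Jurkat (edgeR adjusted p = 0.646). TCF7, its relative, read 20.9 and 15.6 CPM in pure HEK and 38.8 and 40.0 CPM at 20% Jurkat (edgeR adjusted p = 0.0961). BCL11B, which holds cells to the T lineage, read 11.8 and 11.5 CPM in pure HEK and 29.0 and 27.1 CPM at 20% Jurkat (edgeR adjusted p = 0.0537). TCF7 and BCL11B, and TOX below, were called with all 14 libraries in the fit. In the 4 libraries DESeq2 called TCF7 and BCL11B (DESeq2 adjusted p = 0.00487 and 0.00103).

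IKZF2 read 8.04 and 14.5 CPM in pure HEK and 17.2 and 19.6 CPM at 20% Jurkat (edgeR adjusted p = 0.510). GATA3, needed for early T cell development, read 17.4 and 18.1 CPM in pure HEK and 22.3 and 19.6 CPM at 20% Jurkat (edgeR adjusted p = 0.720). SATB1, a chromatin organiser, read 43.5 and 51.0 CPM in pure HEK and 51.8 and 52.0 CPM at 20% Jurkat (edgeR adjusted p = 0.837). TOX read 1.46 and 0.264 CPM in the pure HEK libraries, which lay far apart, and 6.53 and 4.63 CPM at 20% Jurkat (edgeR adjusted p = 0.174). In these 4 both 20% libraries lay above both pure HEK libraries in CPM, without passing the test in the fit of 4 libraries. With ERCC totals as library sizes the log2 fold changes of LEF1 (-0.31), GATA3 (-0.33) and SATB1 (-0.37) were below 0.

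Of the 13 genes around the TAL1 leukaemia complex, 0 were called by edgeR with TMM scaling in the 4 libraries, and DESeq2 called 1. An unadjusted edgeR p under 0.05 in the higher direction was met by 4 of the 11 tested, beside 1261 of all 17179 genes tested. TAL1 itself had 3 and 2 counts in pure HEK and read 3.31 and 2.92 CPM at 20% Jurkat (edgeR adjusted p = 0.0501). Its pooled ratio was 15.3, with a counting interval of 6.34 to 48.4, and it was called with all 14 libraries in the fit. In the 4 libraries it was also called with RLE size factors, with library totals only, with at least 10 counts in 2 libraries and with no filter. TCF3 and TCF12, which encode partners of TAL1, and ARID5B and TRIB2 were all made by HEK cells. TCF12 read 13.6 and 13.7 CPM in pure HEK and 22.3 and 29.6 CPM at 20% Jurkat (edgeR adjusted p = 0.140). ARID5B read 22.3 and 24.9 CPM in pure HEK and 33.5 and 28.6 CPM at 20% Jurkat (edgeR adjusted p = 0.541). For TCF3 (66.0 and 37.2 CPM at 20% Jurkat) and TRIB2 (12.6 and 9.06 CPM) the 20% and pure HEK libraries overlapped.

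Among 15 thymocyte stage genes, CD1E was the call. CD1E, a lipid-antigen protein, read 0.317 and 0.198 CPM in pure HEK and 7.47 and 7.79 CPM at 20% Jurkat (edgeR adjusted p = 0.00932). ADA, adenosine deaminase, read 10.5 and 11.1 CPM in pure HEK and 27.9 and 27.2 CPM at 20% Jurkat, just short of the threshold (edgeR adjusted p = 0.0501). DNTT, the polymerase that adds bases during receptor rearrangement, read 0.423 and 0.132 CPM in pure HEK and 2.51 and 3.07 CPM at 20% Jurkat (edgeR adjusted p = 0.0775). ADA and DNTT were called with all 14 libraries in the fit, and by DESeq2 in the 4 libraries (DESeq2 adjusted p = 0.000357 and 0.0183). With RLE size factors ADA was called as well (edgeR adjusted p = 0.0498). RAG1, which cuts the receptor genes, was low even in pure Jurkat (0.951 and 0.967 CPM) and had 0.132 and 0 CPM at 20% Jurkat, not detectable at this depth. CD99 was made by HEK cells (48.5 and 53.7 CPM) and read 46.0 and 46.1 CPM at 20% Jurkat.

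The GIMAP genes, small GTPases of lymphocytes, were near 0 in pure HEK, where 0 of 7 had over 3 counts in both libraries. GIMAP7 and GIMAP4 were called higher. GIMAP7 had 1 count in each pure HEK library and read 17.0 and 9.34 CPM at 20% Jurkat (edgeR adjusted p = 0.0172). GIMAP4 read 0.212 and 0.198 CPM in pure HEK and 15.2 and 8.04 CPM at 20% Jurkat (edgeR adjusted p = 0.0225). GIMAP5, at 0 in pure HEK, was at least 6.00-fold higher (edgeR adjusted p = 0.0893), and GIMAP1 read 1.05 and 1.98 CPM at 20% Jurkat (edgeR adjusted p = 0.105). GIMAP5 and GIMAP1 were called with all 14 libraries in the fit. In the 4 libraries DESeq2 called GIMAP5 (DESeq2 adjusted p = 0.0149) and not GIMAP1 (DESeq2 adjusted p = 0.102).

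Of 18 regulators of actin in blood cells, 16 were tested and 5 were called higher. FYB1, an adaptor tied to the receptor, had 2 and 4 counts in pure HEK and read 38.6 and 31.6 CPM at 20% Jurkat (log2 fold change 7.17 ± 0.33, SE, n = 2 per group, edgeR adjusted p = 0.00672). LCP1, or L-plastin, read 0.212 and 0.660 CPM in pure HEK and 15.8 and 16.9 CPM at 20% Jurkat (edgeR adjusted p = 0.0103). CORO1A and MYO1G were also called. EVL, made by HEK cells at 64.8 and 48.1 CPM, read 52.9 and 58.6 CPM at 20% Jurkat, which overlapped (edgeR adjusted p = 0.987). ARHGEF6 read 10.2 and 10.7 CPM in pure HEK and 17.9 and 21.8 CPM at 20% Jurkat, above pure HEK in both libraries without passing the test (edgeR adjusted p = 0.130).

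Of 21 cytokine, chemokine and homing receptors, 12 were tested and 2 were called, the shared cytokine receptor chain IL2RG and the integrin ITGB2. IL2RG read 0.317 and 0.132 CPM in pure HEK and 2.84 and 3.61 CPM at 20% Jurkat (edgeR adjusted p = 0.0491). CXCR4 read 4.02 and 4.22 CPM in pure HEK and 9.23 and 9.75 CPM at 20% Jurkat (edgeR adjusted p = 0.0832). ITGA4 read 4.97 and 4.16 CPM in pure HEK and 8.77 and 10.4 CPM at 20% Jurkat (edgeR adjusted p = 0.125).

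Effector genes summed to 0.212 and 0.330 CPM in pure HEK, 1.10 and 1.84 CPM at 20% Jurkat and 16.6 and 18.2 CPM in pure Jurkat. Of 13, 9 were at the floor in pure Jurkat. By edgeR 0 had counts enough to be tested in the 4 libraries, and DESeq2 called 0, while with all 14 libraries in the fit 3 were tested and GZMA was called. GZMA, a granule protease, had 0 counts in pure HEK and read 0.264 and 0.545 CPM at 20% Jurkat, at least 1.57-fold higher, with 8.28 and 10.2 CPM in pure Jurkat. NKG7 (0.0659 and 0.0682 CPM at 20% Jurkat) and GZMK (0.132 and 0 CPM) were under the floor there. PRF1, perforin, read 0.212 and 0.132 CPM in pure HEK and 0.264 and 1.02 CPM at 20% Jurkat.

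**Figure D3:**
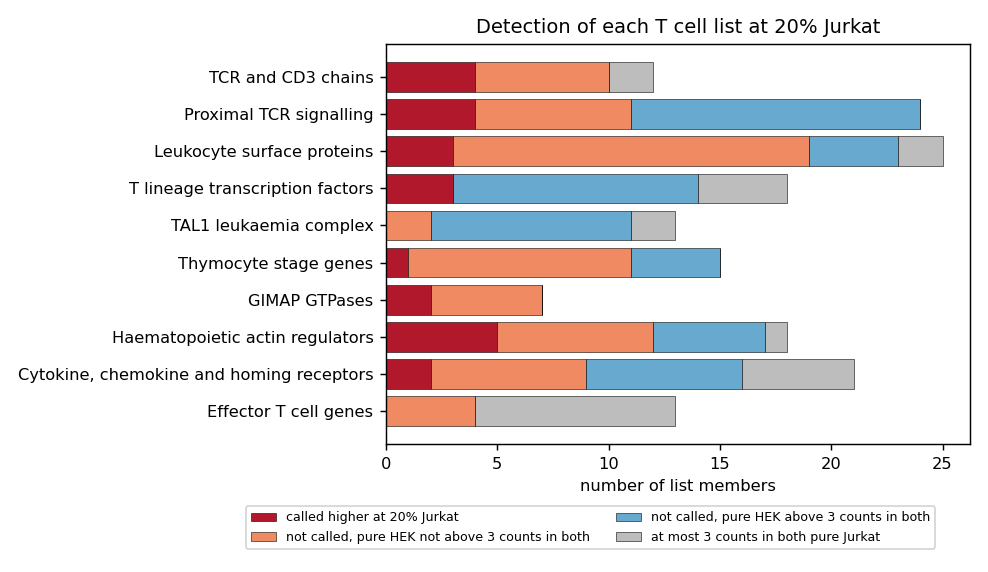
Number of members of each T cell list by class at 20% Jurkat, with calls in red, members not called in orange or blue by whether both pure HEK libraries had over 3 counts, and members at the floor in pure Jurkat in grey. The transcription factors not called are all blue or grey, and the effector genes hold no red.

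Put together over the 166 genes, 24 were called, 25 were at the floor in pure Jurkat (at most 3 counts in both libraries), and 117 were above it without being called. Of those 117, 53 had over 3 counts in both pure HEK libraries and 64 did not. Of the 64, 44 lay above pure HEK in both 20% libraries with over 3 counts, and 32 were called with all 14 libraries in the fit. Of the 53, 31 lay above and 6 were called in that fit. Over all genes tested the shares were 17.8% lying above and 0.941% called higher with all 14 libraries. Calls went with the level in pure Jurkat. Among members with over 3 counts in a pure Jurkat library, 0 of 35 were called under 10 CPM in pure Jurkat and 0 of 26 from 10 to 30 CPM. Above that, 6 of 46 were called from 30 to 100 CPM, 8 of 18 from 100 to 300 CPM and 10 of 16 over 300 CPM, where the last 2 bins hold few genes. Over all genes tested the shares called in the same 5 bins were 0.0586%, 0.149%, 0.70%, 2.26% and 2.38%. Among all genes with at most 3 counts in both pure HEK libraries, list members included, 13 of 48 (27.1%) were called from 30 to 100 CPM and 14 of 18 (77.8%) from 100 to 300 CPM, so the rise in calls with the Jurkat level is not particular to the T cell lists. The means of the 24 called ranged from 61.4 to 1652 CPM in pure Jurkat and from 3.22 to 40.4 CPM at 20% Jurkat. Below 30 CPM edgeR made no call in the fit of 4 libraries, but with all 14 libraries it called 2 of the 35 and 11 of the 26. From 10 to 30 CPM, 19 of the 26 lay above pure HEK in both 20% libraries, beside 16.3% of all genes tested in that bin and 76 of 88 of all genes with at most 3 counts in both pure HEK libraries.

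**Figure D4:**
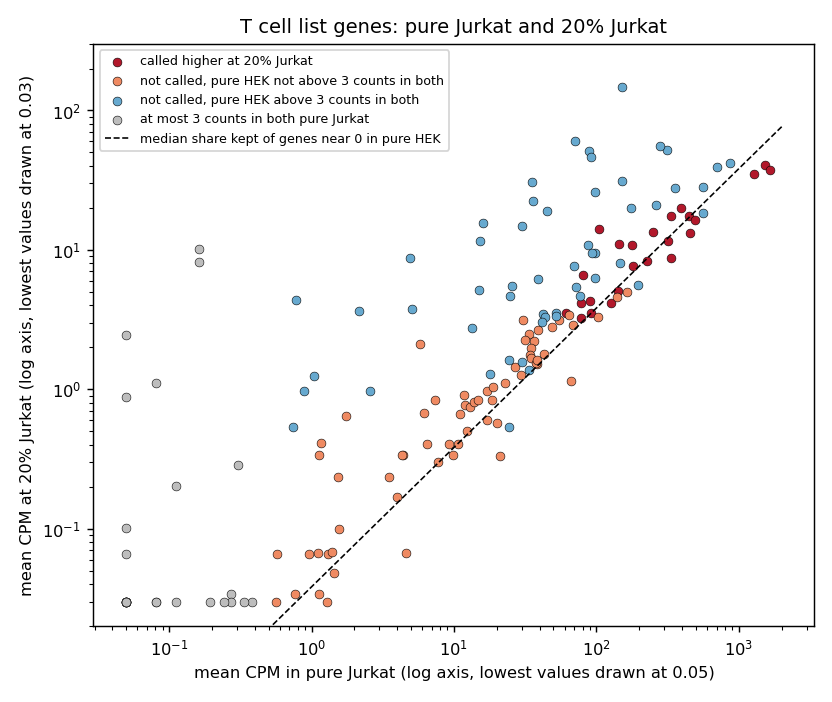
Mean CPM in pure Jurkat against mean CPM at 20% Jurkat (both log axes) for the 166 T cell list genes, coloured by class, with a dashed line at the median share kept of 3.82%. Called genes lie toward its upper end, and most genes with over 3 counts in both pure HEK libraries lie above it.

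How far Jurkat transcripts were diluted was read from 15 genes with at least 100 CPM in both pure Jurkat libraries and at most 3 counts in both pure HEK libraries. The choice of these genes fixes the direction. At 20% Jurkat their median level was 3.79% (quartiles 3.41% and 4.45%) of the pure Jurkat mean in Mixture 3 and 3.64% (3.23% and 3.95%) in Mixture 4. Single genes ranged from 1.96% to 5.21% in Mixture 3 and from 2.06% to 6.42% in Mixture 4, all below 20%. The median was 7.31% and 7.76% at 40% Jurkat, 13.2% and 11.9% at 50%, and 31.7% and 40.0% at 80%. All 15 lay above pure HEK in both 20% libraries, and 14 were called.

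**Figure D5:**
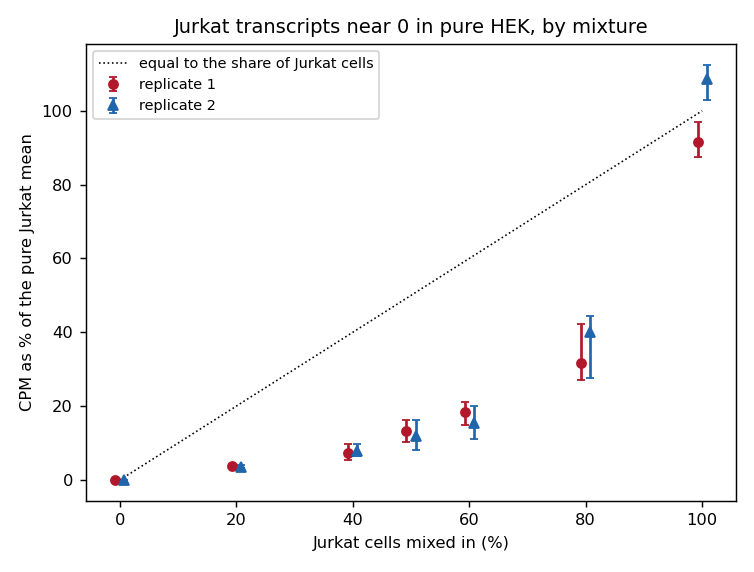
CPM as a percentage of the pure Jurkat mean against the percentage of Jurkat cells, as the median over 15 genes with bars for the quartiles, by replicate. At 20% Jurkat the medians are 3.79% and 3.64%, under the dotted line of equal shares.

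At 40% Jurkat, compared with the same pure HEK libraries, 148 of 16687 genes were called higher (0.887%) and 57 of 166 list members. By edgeR most of these list calls were lost with Mixture 5 left out, and all of them with Mixture 6 left out. Those fits hold a lone library at 40% Jurkat, so their calls are not counted here. The comparisons share their controls and are set side by side only. Receptor genes called there numbered 7, against 4 at 20%, and TRAC read 11.6 and 16.9 CPM. LCK read 22.9 and 25.0 CPM and ZAP70 6.53 and 4.33 CPM, and both were called. LEF1 read 91.0 and 121 CPM and was not. At 20% Jurkat the summed level of the 10 lists was 1322 and 1347 CPM, against 786 and 828 CPM in pure HEK (1335 ± 18.2 and 807 ± 29.96 CPM, SD, n = 2, exact two-sided permutation test, p = 0.333, the smallest possible). FYN made up 11.1% of the sum at 20% Jurkat.

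Among genes called higher without overlap at 20% Jurkat, and with a mean of at least 1 CPM there, the 10 largest fitted log2 fold changes were of ENSG00000250349, ENSG00000229914, ARPP21, GRAP2, ADCYAP1, GPR174, GIMAP7, FYB1, SIX6 and a Y-linked pseudogene, which is not described. ENSG00000250349 had 0 counts in pure HEK and in pure Jurkat and read 5.15 and 8.47 CPM at 20% Jurkat, and is 1 of the 13 above all 4 pure libraries. Its annotated span, chrX:37349330-38687674, overlaps 27 other genes, so it can share reads with them and is uncertain. ENSG00000250349 was not called with all 14 libraries in the fit (edgeR adjusted p = 0.421). The fit of 12 libraries without Mixture 7 and 9 did call it (edgeR adjusted p = 0.0104). It also read 3.84 and 7.58 CPM at 80% Jurkat, where HOXA6 was low, and 3.37 and 2.34 CPM in Mixture 7 and 9. ARPP21, a phosphoprotein also made in thymocytes, had 0 counts in pure HEK and read 6.20 and 4.84 CPM at 20% Jurkat, at least 21.4-fold higher. ADCYAP1, which encodes the neuropeptide PACAP, was at least 10.0-fold higher and the pseudogene ENSG00000229914 at least 24.2-fold higher. GPR174, a receptor of lymphocytes, had 1 and 0 counts in pure HEK and read 6.07 and 11.4 CPM at 20% Jurkat, a pooled ratio of 214 (counting interval 38.0 to 8469). SIX6, a homeobox gene, had 0 and 1 counts in pure HEK and read 7.91 and 5.66 CPM at 20% Jurkat, a pooled ratio of 167 (counting interval 29.7 to 6645).

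The 2 genes called lower were a readthrough gene and a pseudogene, which can share reads with other genes and are uncertain. RPL36A-HNRNPH2 had 0 counts in both 20% Jurkat libraries and 33.9 and 32.0 CPM in pure HEK, and also 14.5 and 18.4 CPM in pure Jurkat. FAM3C2P read 11.7 and 7.81 CPM in pure HEK, 0.765 and 0.825 CPM at 20% Jurkat and 11.9 and 2.15 CPM in pure Jurkat. RPL36A-HNRNPH2 was also called lower with all 14 libraries in the fit (edgeR adjusted p = 0.00160). FAM3C2P was not called there (edgeR adjusted p = 0.194) or with ERCC totals as library sizes (edgeR adjusted p = 0.212), while DESeq2 called it.

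Lists of other cells served as a background. Of 21 HEK identity genes, 19 were tested and 0 were called in either direction by edgeR, with 2 higher and 1 lower at an unadjusted p under 0.05 and 1 called higher by DESeq2. Their summed level was 2583 and 1990 CPM at 20% Jurkat and 2038 and 2342 CPM in pure HEK, which overlapped. NEFM, a neurofilament gene, made up 58.7% of that sum. Of the 21, 5 lay above pure HEK in both 20% libraries, beside 17.8% of all genes tested, and EYA1 was among them. EYA1 read 9.70 and 9.50 CPM in pure HEK and 25.9 and 24.2 CPM at 20% Jurkat. In Mixture 7 and 9 it read 16.4 and 19.7 CPM, against 6.46 and 10.5 CPM in their replicates. Why EYA1 was higher was not tested. Of 23 genes of other blood and stromal lineages, 3 were tested and 0 were called by edgeR or DESeq2, with 0 at an unadjusted p under 0.05. In pure Jurkat 20 of the 23 were at the floor, so Jurkat cells could hardly raise them. Their sum was 13.2 and 13.3 CPM at 20% Jurkat and 19.1 and 16.3 CPM in pure HEK, with COL1A1 the most abundant. The red-cell gene HBB and the myeloid gene MPO had 0 counts in all 4 libraries.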

How the data were processed

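The deposited expected counts and TPM were made by the authors, who aligned single-end reads with STAR 2.6.1b to GRCh38 and ERCC sequences and quantified them with RSEM 1.3.1. The annotation the authors used was not given in the sources used here. Expected counts were rounded, except for CPM levels and the lower bounds of fold changes taken from them, which used unrounded counts. ERCC rows were left out, and symbols were taken from GENCODE release 44 (57754 of 58440 genes matched). Promoters came from RefSeq, GRCh38.p14. Groups followed the titles. Genes were filtered with filterByExpr, scaled by TMM and compared by the edgeR 4.0.16 quasi-likelihood test in R 4.3.3, with Benjamini-Hochberg adjustment over all genes tested and a threshold of 0.05. DESeq2 1.42.0, other scalings and filters, all 14 libraries in the fit, TPM, other floors and left-out libraries were tried. Figures and summaries used Python 3.11.15, numpy 2.4.6, pandas 2.3.3, scipy 1.17.1 and matplotlib 3.10.9. Depth was 9452243 to 15167187 gene counts over the 4 libraries compared. Floors and counting intervals cover counting error only. Genes named were the 4 highest in pure Jurkat of each T cell list, 13 always named, the 10 highest not called, and over all genes the 10 largest calls higher and up to 5 lowest calls lower without overlap and with at least 1 CPM in the higher group. Some genes that this rule takes are not described. Members and lists were chosen with earlier results of these data known.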

Additional observations from a re-analysis of the deposited data

How the results depend on the processing

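No paired analysis was possible because the labels give no replicate numbers shared between groups. The replicate numbers used here follow the order of the records. Of the settings tried, DESeq2 called 312 genes higher and 37 lower, where edgeR called 74 and 2, and 44 T cell list genes, where edgeR called 24. All 14 libraries in the fit gave 180 higher and 62 list genes. A fit of 12 libraries without Mixture 7 and 9, chosen after seeing the data, gave 193 and 62. With no filter on low counts the numbers were 588 higher, 134 lower and 65 list genes. ERCC totals as library sizes gave 17, 11 and 5. Genes called lower numbered 4 with RLE size factors and 8 with library totals only. Calls higher were 82 and 96 in those fits, and 81 with at least 10 counts in 2 libraries. The 24 list genes were all called in each of these settings except with ERCC totals. Leaving out 1 library in turn gave 0 to 231 genes higher, 0 to 123 lower and 0 to 46 list genes at 20% Jurkat, and 0 to 54 list genes at 40%. The counts of 0 are from edgeR, in fits with a lone library at 20% or 40% Jurkat. In these fits the lone library was assumed to vary like the other group.

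The share of the pure Jurkat level kept, 3.82%, was 4.14% with genes of at least 30 CPM in pure Jurkat, 3.35% with at most 10 counts in pure HEK, 3.89% with TPM, and 3.37% to 3.90% with 1 of the 20% or pure Jurkat libraries left out. The ratio of the summed list level, 1.65, was 1.16 per ERCC count and 1.64 to 1.67 with 1 of the 20% libraries left out. Pure HEK libraries were not left out of this ratio. With a floor of 10 counts, 40 members in place of 25 were at the floor in pure Jurkat. The 100 members without overlap were 94 with TPM, 83 with over 10 counts and 67 per ERCC count.

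Log2 fold changes that changed sign with ERCC totals were those of FYN (-0.45), LEF1 (-0.31), ARID5B (-0.17), TRIB2 (-0.50), EVL (-0.56), GATA3 (-0.33) and SATB1 (-0.37). With ERCC totals as library sizes the median of all genes was -0.57. Mean gene counts per ERCC count were 84.9 at 20% Jurkat and 122 in pure HEK (SD 54.2 and 35.4, n = 2 per group). With library totals only EVL was -0.017. With 1 library left out, TCF3 ranged from -0.61 to 0.49, TRIB2 from -0.12 to 0.45, EVL from -0.17 to 0.25 and CD8A from -0.73 to 0.66. The cause of all these changes was not tested.

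At 20% Jurkat, 3 counts were reached by a transcript of 5.22 CPM in pure Jurkat in Mixture 3 and 5.62 CPM in Mixture 4, at the median share kept. Each group had 2 technical replicates, so nothing here measures how separate cultures or mixings differ. The p-values for genes made by HEK cells do not show that their levels stayed the same.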

Other observations

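Across the series the median share of the pure Jurkat level kept by the 15 genes was 18.5% and 15.4% at 60% Jurkat, beside 0.0669% and 0.0259% in pure HEK.

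Motif counts over 177 promoter windows of T cell list genes were 18.1% with the RUNX motif, 9.04% with the GATA motif and 9.04% with the ETS motif. They are descriptions of the windows in the RefSeq table.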
